A study of Mus musculus with 12 samples.

Results

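Expression of 9 genes of the PI3K, AKT and mTOR pathway, chosen by their symbols, was followed through the liver libraries, gene by gene. They were Pik3ca, Pik3cb, Pik3r1, Akt1, Akt2, Mtor, Rptor, Rictor and Tsc2, and each symbol matched 1 row of the 21936 genes counted. In this pathway, growth factor receptors recruit a class I PI3K, a catalytic subunit held by a regulatory subunit, which makes the membrane lipid PIP3. PIP3 brings the kinase AKT to the membrane, where AKT switches on metabolic and survival targets and restrains TSC2, the brake on mTOR. The mTOR kinase works in 2 complexes: with Raptor (Rptor) in mTORC1, which drives protein synthesis and holds back autophagy, and with Rictor in mTORC2, which phosphorylates AKT itself. In the liver the pathway carries the insulin signal to glucose and lipid metabolism. Its activity is set mostly by phosphorylation, which RNA counts do not measure.

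All livers came from male C57BL/6 mice (C57BL/6J in the methods), 6 weeks old on arrival, that had received carbon tetrachloride (CCl4, a hepatotoxin that causes scarring) in olive oil at 1 mL/kg into the peritoneum, 2 times a week for 8 weeks. Mice of the liver fibrosis group (LFG) were killed once these injections ended. In the regression group (REG), 200 µL of phosphate-buffered saline was given through the tail vein 2 times a week for 4 more weeks. Mice of the hADMSCs-Exo group had 250 µg of exosomes, vesicles shed by human adipose-derived mesenchymal stem cells, in the same volume on that schedule. Both therefore differed from LFG by 4 more weeks without CCl4 as well as by the injections. Each group had 3 libraries of whole liver, 9 in all; the hADMSCs group, given the cells themselves, was not analysed here, and no uninjured liver was among these libraries. The table names the exosome columns MSC_E, which was read as Exo; the submitters do not state this, and every hADMSCs-Exo value rests on it. The labels give replicate numbers but do not state that each is a separate animal, so a p-value below measures the spread between these libraries. In whole liver, fewer cells of a type and less RNA per cell cannot be told apart.

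Between 13837445 and 19840917 reads were counted per library. LFG replicate 3 stood apart from the other libraries: it had the fewest genes detected (13924, against 14539 to 15248 elsewhere). The 6 activated stellate cell and myofibroblast markers summed to 2.05 FPKM in it, against 183 and 83.2 in the other LFG libraries, 11.2 to 20.8 in REG and 2.97 to 7.80 in hADMSCs-Exo. The sum of 6 macrophage markers was 49.1 FPKM in that library, against 610 and 378 in the other LFG libraries. FPKM is the number of reads per kilobase of gene, scaled to the reads counted in the library. The 6 hepatocyte markers summed to 51856 to 66629 FPKM in LFG, 69280 to 75707 in REG and 49503 to 65083 in hADMSCs-Exo, so that every REG library lay above every other library. The comparisons with LFG are therefore also given without replicate 3.

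A pair of quantitative PCR primer sets from the methods, for AKT and mTOR, shows which gene a label such as "AKT" can stand for. The AKT pair matched Akt1 exactly and no other gene of the GENCODE vM21 transcripts (GRCm38). The sequences are given 5′ to 3′.
AKT forward: atgaacgacgtagccattgtg
AKT reverse: ttgtagccaataaaggtgccat
The forward primer lies in coding sequence of exon 2 (chr12:112671541-112671561) and the reverse primer in coding sequence of exon 3 (chr12:112662239-112662260), for a product of 116 bases across the intron. The forward primer had 7 mismatches at its closest place in Akt2, and the reverse primer had 6. Capitals mark the primer bases that do not match.
AKT forward on Akt2: ATgaacGaCgTagccAtTgtg
AKT reverse on Akt2: ttGtaGccaatAaaGgTGccat
The mTOR pair matched Mtor alone, with a product of 110 bases.
mTOR forward: accggcacacatttgaagaag
mTOR reverse: ctcgttgaggatcagcaagg
Its forward primer crosses the junction of exons 5 and 6, with 5 bases at chr4:148454748-148454752 and 16 bases at chr4:148455985-148456000, and the reverse primer lies in exon 6 (chr4:148456070-148456089). A product of the AKT pair would thus read Akt1, whereas the RNA-seq counts below separate Akt1 from Akt2.

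On the length-scaled FPKM scale, the genes spanned a wide range of levels, from Akt1 at the top to Rictor at the bottom. Akt1, a broadly expressed AKT kinase tied to growth and survival, had a mean of 16.3 FPKM over 9 libraries (range 11.2 to 22.6), above 84.2% of the 12760 genes kept by the low-count filter. Akt2, the AKT kinase best known for insulin signalling in liver, muscle and fat, had a mean of 12.7 FPKM (9.46 to 15.9). Next came Pik3r1, the main regulatory subunit, at a mean of 7.79 FPKM, then Mtor at 5.81, Tsc2 at 4.32 and Pik3ca at 3.47. Rptor and Pik3cb followed at means of 2.36 and 2.32 FPKM. Rictor was the lowest, with a mean of 1.07 FPKM (0.626 to 1.68), above 26.4% of those genes.

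The order held between most neighbours. Akt1 exceeded Akt2 in FPKM in 7 of 9 libraries, Pik3r1 exceeded Mtor in 7 of 9, and Rptor exceeded Pik3cb in 5 of 9, so these 3 pairs were not separated by the spread between libraries. Every other neighbouring pair was in the same order in 9 of 9 libraries. The 2 libraries with more Akt2 than Akt1 were REG replicates 2 and 3.

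**Figure D1:**
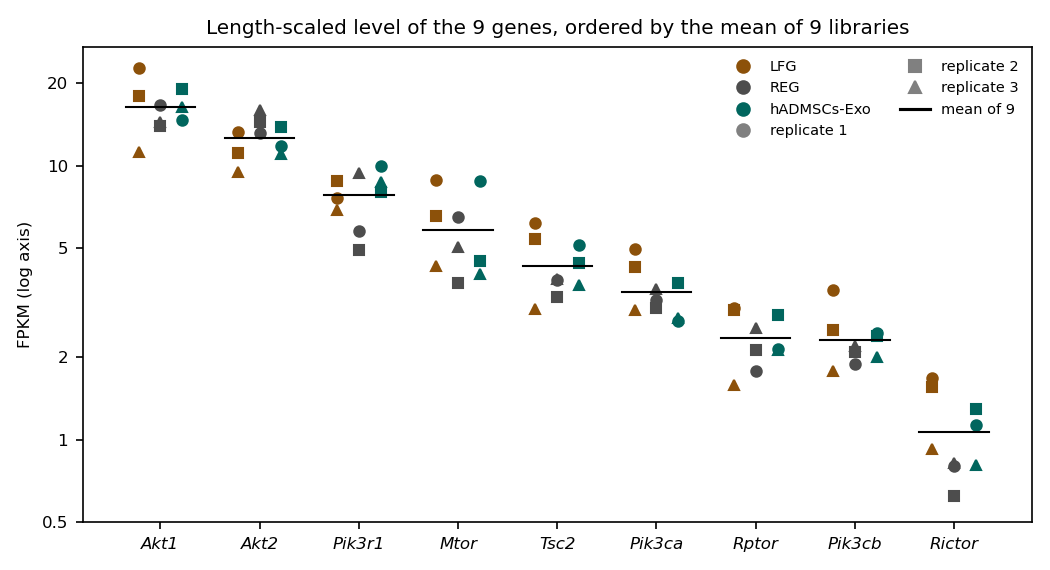
FPKM of the 9 genes on a log axis, ordered by their mean over 9 libraries (black lines); colours are groups and symbols are replicates. Akt1 and Akt2 sit near 10 to 20 FPKM, and Rictor near 1 FPKM with its 3 REG libraries below its 3 LFG libraries.

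The genes varied little from library to library once counts were scaled between libraries. The gap between the highest and the lowest of 9 libraries on the log2 CPM scale (counts scaled to a common library size after TMM, which corrects for a few abundant genes) was 0.39 for Pik3cb, 0.45 for Akt1 and 0.47 for Tsc2. It was widest for Mtor, at 1.09, and for Rictor, at 1.07. The median gap of all 12760 genes was 1.25, above that of each of the 9. In FPKM, without TMM, the spread was wider: 11.2 to 22.6 for Akt1, 3.01 to 6.16 for Tsc2 and 1.79 to 3.51 for Pik3cb. The TMM factors ran from 0.808 to 1.38 within LFG. The lowest of their counts was 178 reads (Pik3cb in LFG replicate 3), a counting error of 7.50%, and the highest was 2253 (Akt2 in REG replicate 3), a counting error of 2.11%. These errors cover counting only.

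None of the 9 genes passed the test in any of the comparisons between groups. The test was edgeR's quasi-likelihood test over all genes, with Benjamini-Hochberg adjustment, and a gene passed at an adjusted p under 0.05 and a log2 fold change of at least 1 in either direction. Of the 9, 0 passed in hADMSCs-Exo compared to REG, where 0.00811% of all 12337 genes tested did (1 gene). Likewise 0 of 9 passed in hADMSCs-Exo compared to LFG and in REG compared to LFG, as did 0% of 12489 and 0% of 12517 genes. DESeq2 and limma-voom also passed 0 of the 9 in each comparison. Over all genes DESeq2 passed 0.543%, 0.480% and 1.92% in the same order of comparisons, and limma-voom 0.0243%, 0.00801% and 10.3%. At an unadjusted p under 0.05, DESeq2 had 0, 0 and 2 of the 9, where 9.70%, 8.45% and 14.0% of all genes did. With limma-voom there were 2, 0 and 3 of the 9, where 13.6%, 28.1% and 42.0% of all genes did. The last 2 comparisons share the LFG libraries.

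With edgeR, Akt2 and Rictor were the members at an unadjusted p under 0.05, and in opposite directions. These 2 of 9 reached it in hADMSCs-Exo compared to REG, where 10.0% of all genes tested did. There the count was 0 without hADMSCs-Exo replicate 1 (10.1% of all genes) and without REG replicate 2 (4.92%). It was also 0 with the replicate block (9.52%) and with DESeq2 (9.70%). The count was 1 without hADMSCs-Exo replicate 2 (8.59% of all genes), hADMSCs-Exo replicate 3 (9.57%) or REG replicate 1 (10.6%). It was also 1 with library totals only (10.2%), with no filter on low counts (8.58%) and with all 9 libraries in one fit (3.79%). Against LFG, 0 of 9 did in hADMSCs-Exo, where 5.98% of all genes did. In REG compared to LFG the 2 were also Akt2 and Rictor, against 11.3% of all genes; this comparison shares its REG libraries with the first, so the repeat and its opposite signs are no independent finding. For REG against LFG, the count was 0 without REG replicate 2, where the share of all genes also fell, to 4.51%. The count was 1 without LFG replicate 1 (8.96% of all genes), LFG replicate 2 (7.13%) or REG replicate 3 (1037 of 12961 genes). With library totals only, the count was also 1 (11.4%). On log2 CPM scaled within each comparison, groups did not overlap for 1 of 9 in hADMSCs-Exo compared to REG (15.8% of all genes). The count was 0 of 9 in hADMSCs-Exo compared to LFG (12.3%) and 2 of 9 in REG compared to LFG (18.9%).

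**Figure D2:**
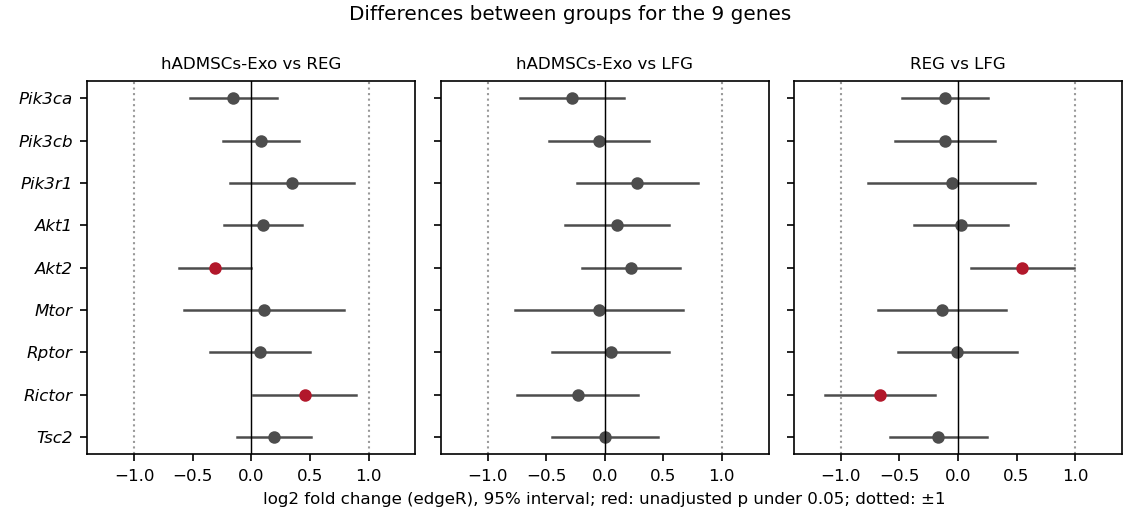
log2 fold change (points) and 95% interval (lines) of the 9 genes in each comparison, from edgeR; red points have an unadjusted p under 0.05 and dotted lines mark a log2 fold change of 1 in either direction. Akt2 and Rictor are the red points, on opposite sides of 0 in the left and right panels, and neither is red in hADMSCs-Exo compared to LFG.

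The catalytic and regulatory PI3K subunits did not differ beyond the spread between libraries. Pik3ca (ENSMUSG00000027665, chr3:32397671-32468486, plus strand; GRCm38 in all cases) encodes the catalytic subunit p110α. It stood at 4.97, 4.28 and 2.98 FPKM in LFG, 3.24, 3.04 and 3.54 in REG, and 2.71, 3.74 and 2.77 in hADMSCs-Exo. The 3 groups overlapped. Its log2 fold change was -0.15 in hADMSCs-Exo compared to REG (95% interval -0.53 to 0.22), -0.28 in hADMSCs-Exo compared to LFG (-0.73 to 0.17) and -0.11 in REG compared to LFG (-0.47 to 0.26). With single libraries left out these ran from -0.30 to -0.049, -0.42 to -0.15 and -0.13 to -0.049.

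Pik3cb (ENSMUSG00000032462, chr9:99036654-99140621, minus strand) encodes the catalytic subunit p110β. It had 3.51, 2.53 and 1.79 FPKM in LFG, 1.89, 2.09 and 2.20 in REG, and 2.45, 2.40 and 2.01 in hADMSCs-Exo. It was the steadiest of the 9 on the log2 CPM scale, with all libraries between 3.82 and 4.21. The log2 fold changes were 0.083 (-0.24 to 0.41), -0.046 (-0.48 to 0.38) and -0.11 (-0.53 to 0.31) in hADMSCs-Exo compared to REG, hADMSCs-Exo compared to LFG and REG compared to LFG. Of the 50-base windows in Pik3cb transcripts, 5.19% also occurred in 2 other gene models, Gm12978 and Gm12992, so its count is uncertain by the reads that could have been placed there.

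Pik3r1 (ENSMUSG00000041417, chr13:101680563-101768217, minus strand) encodes the regulatory subunit p85α and its shorter forms. It was high in all 3 hADMSCs-Exo libraries (10.0, 7.99 and 8.72 FPKM) and split in REG (5.78, 4.93 and 9.40). In LFG it stood at 7.64, 8.77 and 6.91 FPKM. REG replicate 3 lay with the hADMSCs-Exo libraries, so the groups overlapped. The log2 fold change in hADMSCs-Exo compared to REG was 0.35 (95% interval -0.18 to 0.88; unadjusted p = 0.17, edgeR adjusted p = 0.634). With single libraries left out it ran from 0.17 (without REG replicate 2) to 0.67 (without REG replicate 3, unadjusted p = 0.00378). Compared to LFG it was 0.28 (-0.24 to 0.80) in hADMSCs-Exo and -0.054 (-0.77 to 0.66) in REG.

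Akt1 (ENSMUSG00000001729, chr12:112653821-112674884, minus strand) did not differ between groups beyond the spread between libraries. It had 22.6, 18.0 and 11.2 FPKM in LFG, 16.6, 13.9 and 14.5 in REG, and 14.7, 19.1 and 16.3 in hADMSCs-Exo. On the log2 CPM scale the LFG libraries were closer together, at 6.08, 6.09 and 5.83, beside 5.95 to 6.13 in REG and 5.88 to 6.28 in hADMSCs-Exo. The log2 fold change in hADMSCs-Exo compared to REG was 0.098 (95% interval -0.23 to 0.43), a ratio of 1.07 (0.850 to 1.35), with an unadjusted p of 0.517 by edgeR. It was 0.10 (-0.34 to 0.55) in hADMSCs-Exo compared to LFG and 0.027 (-0.37 to 0.43) in REG compared to LFG. The sign of the comparisons with LFG was not stable: scaled by library totals alone they came to -0.050 and -0.21.

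Akt2 (ENSMUSG00000004056, chr7:27591552-27640826, plus strand) had its highest mean in REG. It stood at 6.10, 6.19 and 6.38 log2 CPM in LFG, 6.59, 6.80 and 6.90 in REG, and 6.35, 6.61 and 6.40 in hADMSCs-Exo. Every REG library lay above every LFG library, and hADMSCs-Exo replicate 2 lay just inside the REG range. In REG compared to LFG the log2 fold change was 0.55 ± 0.18 (SE; n = 3 and 3; 95% interval 0.11 to 0.99), a ratio of 1.46, with an edgeR unadjusted p of 0.0213 and an adjusted p of 0.388. Against REG it was -0.31 ± 0.13 in hADMSCs-Exo (-0.62 to -0.00018), a ratio of 0.807, with an unadjusted p of 0.0499 and an edgeR adjusted p of 0.498. Against LFG it was 0.22 (-0.20 to 0.64) in hADMSCs-Exo.

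The scaling bears on the Akt2 difference from LFG. In FPKM, which the depositors scaled by library totals, the LFG libraries had 13.2, 11.1 and 9.46 and the REG libraries 13.1, 14.4 and 15.9, so the groups touched. With library totals alone the log2 fold change in REG compared to LFG was 0.36, with an unadjusted p of 0.126 by edgeR. In transcripts of Akt2, 9.76% of 50-base windows also occurred in the pseudogene Akt2-ps, which has no row of its own in the table, and reads from the shared stretch cannot be told apart.

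Rictor (ENSMUSG00000050310, chr15:6708379-6800401, plus strand), the scaffold that defines mTORC2, had its lowest mean in REG. Its libraries had 1.68, 1.55 and 0.926 FPKM in LFG, 0.801, 0.626 and 0.825 in REG, and 1.13, 1.30 and 0.810 in hADMSCs-Exo. Every REG library lay below every LFG library, in FPKM as in log2 CPM (LFG 4.38, 4.60 and 4.29; REG 3.81, 3.54 and 3.89). In REG compared to LFG the log2 fold change was -0.67 ± 0.20 (SE; n = 3 and 3; 95% interval -1.14 to -0.20), a ratio of 0.630, with an edgeR unadjusted p of 0.0121 and an adjusted p of 0.357.

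Rictor, in hADMSCs-Exo compared to REG, had a log2 fold change of 0.46 ± 0.19 (0.015 to 0.90), a ratio of 1.37, with an unadjusted p of 0.0442 and an edgeR adjusted p of 0.489. The groups were barely separate when these 6 libraries were scaled together: hADMSCs-Exo replicate 3 stood at 3.85 log2 CPM and REG replicate 3 at 3.84. Scaled over all 9 libraries they stood at 3.887 and 3.889, so the groups overlapped. In FPKM the order of these libraries was also the other way round. Against LFG the log2 fold change was -0.23 (-0.75 to 0.29) in hADMSCs-Exo. No 50-base window of Rictor, Akt1 or Mtor occurred in another gene.

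In edgeR, the Akt2 and Rictor differences in REG compared to LFG reached an adjusted p under 0.05 without LFG replicate 3 and in no edgeR fit that held it. Without it, Akt2 had a log2 fold change of 0.67 (edgeR adjusted p = 0.0391) and Rictor one of -0.70 (edgeR adjusted p = 0.0415), in a fit where 16.8% of 12948 genes had an adjusted p under 0.05 whatever their fold. These were the 2 of 9 members that did, and both stayed under a log2 fold change of 1 in size. The other 7 members then ran from -0.24 (Tsc2) to 0.096 (Pik3r1), with adjusted p of 0.267 or more. Against LFG without replicate 3, the 9 members in hADMSCs-Exo ran from -0.28 (Rictor) to 0.42 (Pik3r1), with edgeR adjusted p from 0.235 to 0.938. In limma-voom with library quality weights on all 6 libraries, the log2 fold changes were 0.61 (adjusted p = 0.0230) and -0.85 (adjusted p = 0.0174), where 22.8% of all genes had an adjusted p under 0.05. Over the 14 settings tried, the adjusted p ran from 0.0230 to 0.928 for Akt2 and from 0.0174 to 0.928 for Rictor, with the same sign in each. The myofibroblast marker sum also differed between REG (11.2 to 20.8 FPKM) and LFG replicates 1 and 2 (183 and 83.2), as did the cholangiocyte sum (35.7 to 37.8 against 154 and 91.2) and in part the macrophage sum (143 to 480 against 610 and 378). The hepatocyte sum, in FPKM, was higher in every REG library than in every LFG library. Akt2 was so in log2 CPM but not in FPKM (13.1 in REG replicate 1, 13.2 in LFG replicate 1). The part of these cell types in the Akt2 and Rictor values was not tested.

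**Figure D3:**
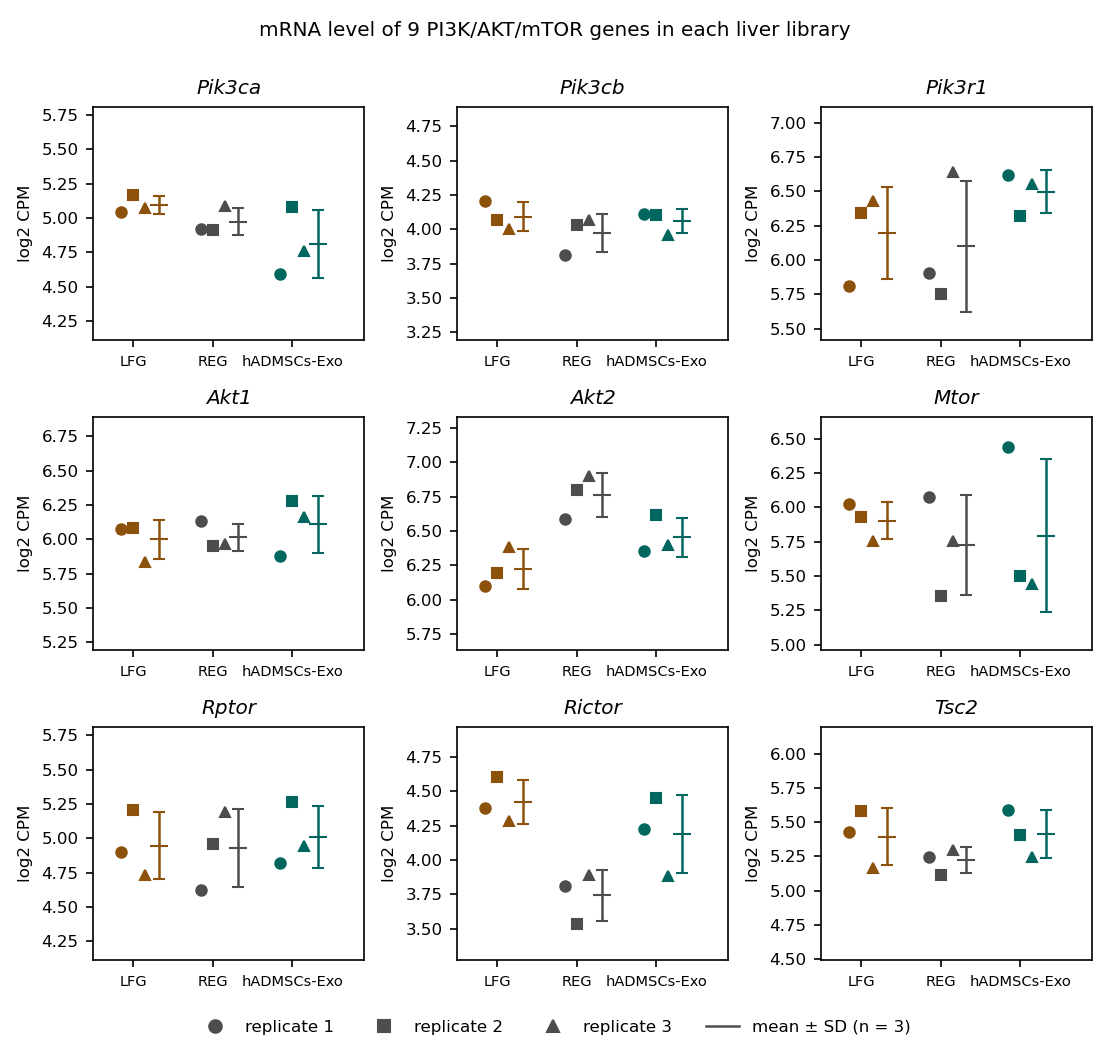
log2 CPM of each of the 9 genes in the 9 libraries, with the mean ± SD of each group beside its points; every panel spans the same number of log2 units. REG lies above LFG for Akt2 (6.59 to 6.90) and below LFG for Rictor (3.54 to 3.89), with 1 hADMSCs-Exo library inside the REG range in each case, and REG and LFG overlap for the other genes.

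Mtor (ENSMUSG00000028991, chr4:148448611-148557683, plus strand), the kinase at the centre of both complexes, spread most within groups. It had 8.84, 6.55 and 4.31 FPKM in LFG, 6.50, 3.72 and 5.05 in REG, and 8.79, 4.50 and 4.01 in hADMSCs-Exo. One library, hADMSCs-Exo replicate 1, was the highest of the 9 on the log2 CPM scale (6.44), and the other hADMSCs-Exo libraries lay inside the REG range. The log2 fold change was 0.11 in hADMSCs-Exo compared to REG (95% interval -0.58 to 0.79, unadjusted p = 0.729 by edgeR), a ratio of 1.08 (0.670 to 1.73). Leaving out hADMSCs-Exo replicate 1 turned it to -0.29, and leaving out REG replicate 2 turned it to -0.069. Compared to LFG it was -0.047 (-0.76 to 0.67) in hADMSCs-Exo and -0.14 (-0.68 to 0.41) in REG, and these signs also turned, to as much as 0.14 and 0.053, when single libraries were left out. No direction can be read for Mtor at this spread.

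Rptor (ENSMUSG00000025583, chr11:119602905-119899576, plus strand), the scaffold of mTORC1, had 3.04, 2.98 and 1.59 FPKM in LFG, 1.78, 2.13 and 2.57 in REG, and 2.15, 2.86 and 2.12 in hADMSCs-Exo. All 3 groups overlapped. Its log2 fold changes were 0.077 (95% interval -0.35 to 0.50) in hADMSCs-Exo compared to REG, 0.050 (-0.45 to 0.55) in hADMSCs-Exo compared to LFG and -0.0057 (-0.51 to 0.50) in REG compared to LFG. An antisense gene, Rptoros, covers 0.624% of its exonic bases.

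Tsc2 (ENSMUSG00000002496, chr17:24595816-24632630, minus strand), the brake that holds the small GTPase RHEB inactive, had 6.16, 5.41 and 3.01 FPKM in LFG, 3.84, 3.31 and 3.88 in REG, and 5.12, 4.43 and 3.67 in hADMSCs-Exo. The top 2 libraries of these last 2 groups were both hADMSCs-Exo, but replicate 3 of that group fell within REG. Its log2 fold change in hADMSCs-Exo compared to REG was 0.19 (95% interval -0.13 to 0.51, unadjusted p = 0.2 by edgeR). Compared to LFG it was 0.0051 (-0.45 to 0.46) in hADMSCs-Exo and -0.17 (-0.58 to 0.25) in REG. Tsc2 shares 693 exonic bases, 7.20% of its own, with Pkd1 on the opposite strand (161 to 401 reads per library). The sources used here do not state a use of strand in the counting, so reads from the shared stretch cannot be told apart.

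The 95% intervals of all 9 genes lay within a log2 fold change of 1 in either direction in hADMSCs-Exo compared to REG and in hADMSCs-Exo compared to LFG. The widest bounds there were 0.90 (Rictor) and 0.80 (Pik3r1). In REG compared to LFG the interval of Rictor reached -1.14. These intervals are not adjusted for the number of genes. The median log2 fold change of the 9 was 0.098 in hADMSCs-Exo compared to REG, 0.0051 in hADMSCs-Exo compared to LFG and -0.11 in REG compared to LFG, beside medians of 0.0080, -0.059 and -0.068 over all genes tested. Scaled by library totals alone, the median of the 9 was 0.16, -0.14 and -0.32. As a difference of mean log2 CPM, the median of all genes was 0.0060, -0.0023 and 0.0076 under TMM and 0.067, -0.10 and -0.17 under library totals.

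A ratio of 2 genes within a library needs no scaling between libraries. Such ratios of reads per kilobase were formed for several pairs and compared between groups, 15 tests in all, by a two-sided exact permutation test whose smallest possible p is 0.1. Rptor to Rictor, the scaffold of mTORC1 over that of mTORC2, was 1.81, 1.92 and 1.71 in LFG, 2.22, 3.40 and 3.11 in REG, and 1.90, 2.20 and 2.62 in hADMSCs-Exo. It was the one ratio whose groups did not overlap, in REG compared to LFG. The difference was 0.66 log2 units (1.52 ± 0.32 in REG and 0.86 ± 0.080 in LFG, SD, n = 3; exact p = 0.1, Benjamini-Hochberg adjusted p = 0.333). Without LFG replicate 3 it was 0.62.

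Akt1 to Akt2 was 1.71, 1.62 and 1.19 in LFG, 1.27, 0.967 and 0.909 in REG, and 1.25, 1.38 and 1.48 in hADMSCs-Exo. REG held the lowest values, with 1 library of each other group inside its range. The difference was -0.52 log2 units in REG compared to LFG and 0.40 in hADMSCs-Exo compared to REG, each with an exact permutation p of 0.2 and an adjusted p of 0.333. Pik3ca to Pik3r1, the catalytic over the regulatory subunit, was 0.271, 0.468 and 0.318 in hADMSCs-Exo, 0.560, 0.616 and 0.376 in REG and 0.650, 0.488 and 0.431 in LFG. It differed by -0.56 log2 units in hADMSCs-Exo compared to REG (exact permutation p = 0.2), and the groups overlapped at 1 library. Pik3ca to Pik3cb ran from 1.11 to 1.71 and Mtor to Tsc2 from 1.02 to 1.72 over the 9 libraries. The lowest adjusted p of the 15 tests was 0.333. These tests took no account of pairs, and the labels do not link replicate numbers across groups. By replicate number, Pik3ca to Pik3r1 and Pik3ca to Pik3cb were lower, and Rptor to Rictor higher, in hADMSCs-Exo than in LFG in 3 of 3 pairs (two-sided exact paired permutation p = 0.25, the smallest that 3 pairs allow; this test was chosen after seeing the data).

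**Figure D4:**
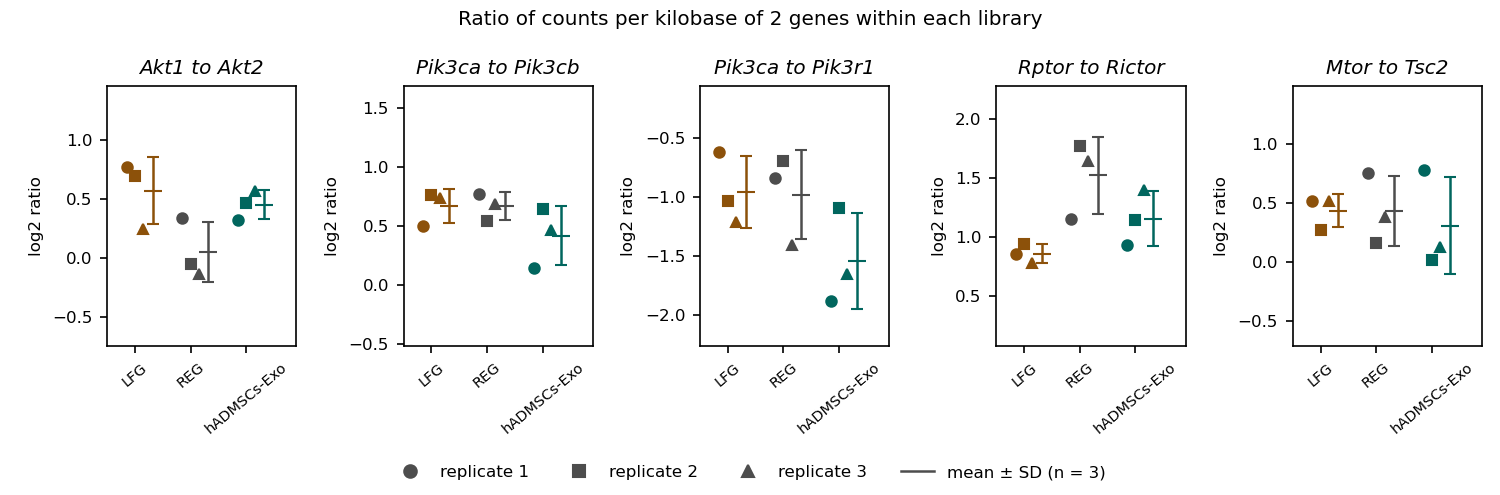
log2 ratio of reads per kilobase of 2 genes within each library, with the mean ± SD of each group; every panel spans the same number of log2 units. Rptor to Rictor is higher in all 3 REG libraries (1.15 to 1.76) than in the 3 LFG libraries (0.78 to 0.94), and the hADMSCs-Exo libraries lie between 0.93 and 1.39.

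Likeness was measured for Pik3r1, Akt1 and Mtor as the mean absolute difference of log2 CPM over 9 libraries, each gene centred on its own mean. Akt1 was most like Axin1 (0.047) and 5730455P16Rik (0.051), beside a median of 0.34 over the other 12759 genes. The closest to Pik3r1 were Slc12a4 (0.13) and Hacd3 (0.15), with a median of 0.41. For Mtor they were Pogk (0.095) and Mier2 (0.10), with a median of 0.43. Of the other 8 members, Tsc2 was the nearest to Mtor (0.22) and to Pik3r1 (0.28), and Rptor the nearest to Akt1 (0.15).

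Around the 9, 77 further genes of the pathway were read by role, from receptors to effectors. Rragb, with 0 to 12 reads, was not tested, which left 76. By edgeR, 0 of 76 passed both thresholds in each comparison. DESeq2 passed 1, 1 and 3 of the 76 in hADMSCs-Exo compared to REG, hADMSCs-Exo compared to LFG and REG compared to LFG. Of all genes it passed 0.543%, 0.480% and 1.92%. In that order limma-voom passed 0, 0 and 11 of the 76, and 0.0243%, 0.00801% and 10.3% of all genes. At an unadjusted p under 0.05 there were 9 in hADMSCs-Exo compared to REG (5 higher, 4 lower), 1 in hADMSCs-Exo compared to LFG (lower) and 8 in REG compared to LFG (1 higher, 7 lower). Over all genes the shares were 10.0%, 5.98% and 11.3%, so the first and the last count were near the background. The medians of the 76 were 0.00071, -0.16 and -0.10.

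Among inducible brakes of the pathway, Ddit4 (REDD1, a stress-induced inhibitor of mTORC1 that works through the TSC complex) had the widest differences. It stood at 24.4, 101 and 8.32 FPKM in LFG, 5.27, 3.35 and 4.34 in REG, and 4.54, 13.5 and 22.2 in hADMSCs-Exo. The 3 REG libraries lay close together, and the others spread over a wide range. Its log2 fold change was -3.13 in REG compared to LFG (unadjusted p = 0.00702, edgeR adjusted p = 0.318) and 1.61 in hADMSCs-Exo compared to REG (unadjusted p = 0.0139, edgeR adjusted p = 0.41). Trib3, a pseudokinase that binds AKT, had 6.67, 5.06 and 2.82 FPKM in REG and 2.40, 2.06 and 2.80 in hADMSCs-Exo. Its log2 fold change was -1.05 (unadjusted p = 0.0112, edgeR adjusted p = 0.407), with REG replicate 3 at the level of hADMSCs-Exo.

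Of the receptors and adaptors, Irs2, the insulin receptor substrate that links the receptor to PI3K in hepatocytes, stood lower in both later groups than in LFG. It had 5.19, 16.0 and 3.71 FPKM in LFG, 1.58, 2.20 and 0.964 in REG, and 0.855, 1.53 and 1.15 in hADMSCs-Exo. No library of either later group reached the lowest LFG library. The log2 fold change was -2.70 in hADMSCs-Exo compared to LFG (unadjusted p = 0.00242, edgeR adjusted p = 0.805) and -2.19 in REG compared to LFG (unadjusted p = 0.00788, edgeR adjusted p = 0.323). It was the one gene of the 76 with an unadjusted p under 0.05 in hADMSCs-Exo compared to LFG (5.98% of all genes). The fit with the replicate block gave 2 (5.72%).

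Of the transcription factors that AKT keeps out of the nucleus, Foxo1 stood lowest in REG. It had 5.46, 5.85 and 3.39 FPKM in LFG, 2.60, 2.22 and 2.76 in REG, and 3.32, 5.02 and 3.91 in hADMSCs-Exo. REG lay below both other groups with no overlap. The log2 fold change was -0.75 in REG compared to LFG (edgeR adjusted p = 0.309) and 0.63 in hADMSCs-Exo compared to REG (adjusted p = 0.407). Foxo3 had a log2 fold change of 0.41 in hADMSCs-Exo compared to REG, with FPKM of 6.83, 9.88 and 7.28 against 5.94, 5.28 and 6.04.

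Downstream of mTORC1, Rps6kb1, the S6 kinase, had 4.84, 4.07 and 3.68 FPKM in hADMSCs-Exo and 3.27, 2.37 and 3.28 in REG. Its log2 fold change was 0.43 (unadjusted p = 0.0306, edgeR adjusted p = 0.463). Gsk3b, a kinase that AKT inhibits, had a log2 fold change of -0.72 in REG compared to LFG, the smallest unadjusted p of the 76 there (0.00323, edgeR adjusted p = 0.291). Sgk1, a kinase activated by mTORC2, had one of -1.22 (unadjusted p = 0.0488), and its LFG libraries ran from 2.55 to 14.0 FPKM.

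In the nutrient branch, which senses amino acids for mTORC1, Flcn had the smallest unadjusted p of the 76 in hADMSCs-Exo compared to REG. This partner of the RAG GTPases had 6.07, 7.46 and 5.23 FPKM in hADMSCs-Exo and 10.5, 8.56 and 10.1 in REG, with no overlap (log2 fold change -0.70, unadjusted p = 0.00195, edgeR adjusted p = 0.358). Castor1, an arginine sensor, was counted with 27 to 67 reads and had a log2 fold change of -0.84 there. Sesn2, a stress-induced leucine sensor, had one of 0.64 in hADMSCs-Exo compared to REG and of -1.01 in REG compared to LFG.

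The remaining PI3K genes at that p were Pik3c3 and Pik3ap1. Pik3c3, the class III PI3K of autophagy, had log2 fold changes of -0.33 in hADMSCs-Exo compared to REG and 0.53 in REG compared to LFG. Pik3ap1, an adaptor of B cells and other leukocytes, had one of -1.04 in REG compared to LFG, with 8.47 to 26.4 FPKM in LFG and 5.38 to 7.56 in REG. LFG replicate 3 had the lowest LFG value and the lowest macrophage marker sum (49.1 FPKM), whose part in this difference was not tested.

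**Figure D5:**
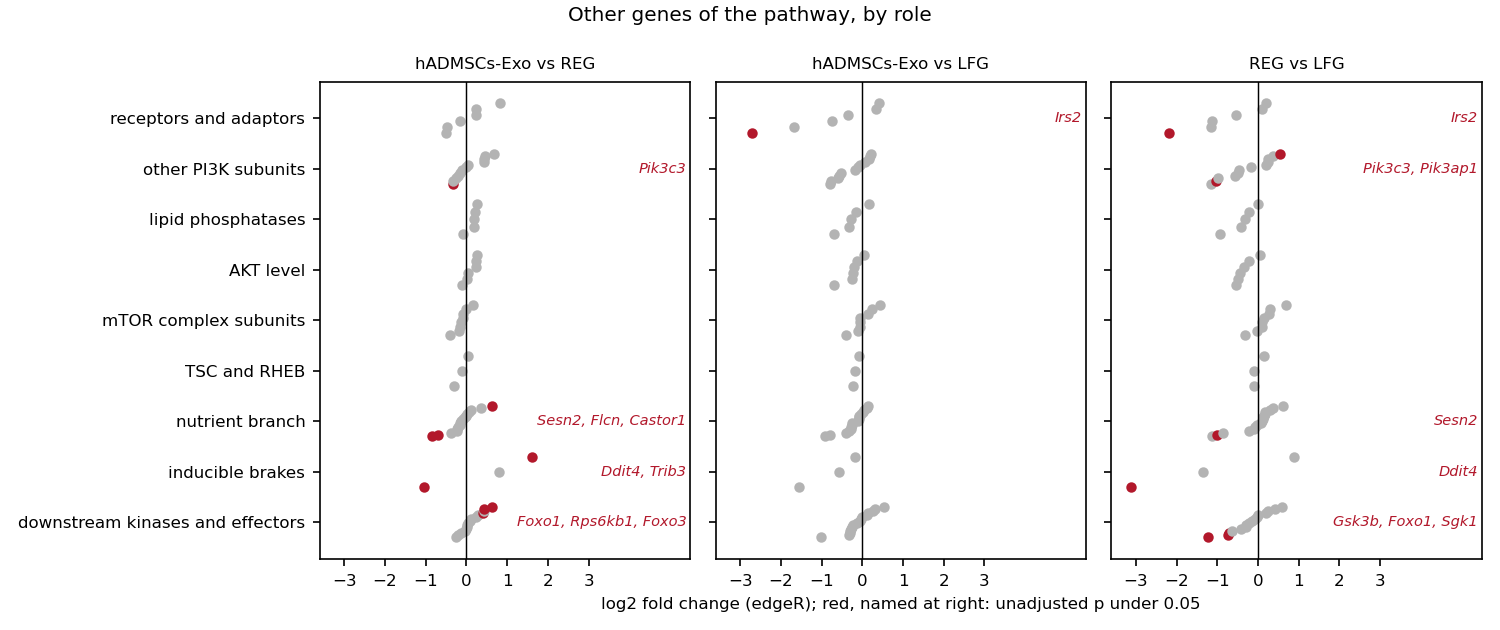
log2 fold change of the 76 further pathway genes tested, by role, in each comparison (edgeR); red points, named at the right of each panel, have an unadjusted p under 0.05. Ddit4 and Irs2 lie farthest from 0 in REG compared to LFG (-3.13 and -2.19), and the lipid phosphatases, the AKT level, the mTOR complex subunits and the TSC and RHEB genes hold no red point in any panel.

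Leaving out LFG replicate 3 changed these counts for the 76. In REG compared to LFG, 12 of 76 then passed both thresholds (1 higher, 11 lower), where 10.7% of all 12948 genes did. They included Ddit4 (-3.56), Sgk1 (-1.58), Irs2 (-2.42), Pik3ap1 (-1.20) and Sesn2 (-1.15) among those already named, and the 1 higher gene was Eif4ebp1, the mTORC1-regulated repressor of translation (1.14, edgeR adjusted p = 0.0159). Against LFG, 4 of 76 then passed in hADMSCs-Exo, where 5.97% of all 12955 genes did. These were Irs2 (-2.94), the receptor adaptor Grb10 (-2.10), the lipid phosphatase Inpp5d (-1.16) and Eif4ebp1 (1.07). Eif4ebp1, Grb10 and Inpp5d were named after their values were seen.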

How the data were processed

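Liver RNA of 9 libraries was read from 1 deposited table. The submitters' processing notes list cutadapt 1.15, HISAT2 2.0.5, HTSeq 0.9.1, DESeq 1.30.0 and GRCm38, with no roles; the use of strand is not given in the sources used here. The deposited read counts, raw and 1 column per library, were used for all tests. The deposited FPKM values scale counts by the gene length in the table and by library totals, and were used for levels. Exosome columns are named MSC_E and the samples Exo. They were matched by reading E as Exo; the series also holds samples titled MSC, and the match is uncertain.

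Groups were compared in pairs (6 libraries) with edgeR 4.0.16 (filterByExpr, TMM, quasi-likelihood test), adjusted by Benjamini-Hochberg over all genes. log2 CPM used a prior count of 2. The script was tested on simulated data. DESeq2 1.42.0, limma 3.58.1 and other settings were alternatives. Replicate numbers were checked as pairs by correlating deviations from group means: 0.14, -0.0071 and 0.027 (hADMSCs-Exo and REG), 0.42, -0.21 and 0.32 (REG and LFG), and 0.11, 0.31 and 0.19 (hADMSCs-Exo and LFG), which were treated as pairs from these data alone. Ratios were tested by exact permutation (scipy 1.17.1). All 9 members were named, with every gene of the wider list at an unadjusted p under 0.05. Members and lists were chosen with earlier results of these data known.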

Additional observations from a re-analysis of the deposited data

How the results depend on the processing

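Members past both thresholds stayed at 0 in every setting tried. Counts at an unadjusted p under 0.05 moved. In hADMSCs-Exo compared to REG, the 2 members became 1 with library totals alone (10.2% of all genes), an alternative chosen after seeing the data. They became 1 without a filter (8.58%) and with all 9 libraries in one fit (3.79%). With DESeq2 (9.70%) or the replicate block (9.52%) they became 0. The 76 further genes gave 14 with limma-voom (13.6% of all genes). With library totals, 0 members had groups that did not overlap, a measure not counted over all genes in alternative settings. In hADMSCs-Exo compared to LFG, the 76 gave 2 with the replicate block (5.72% of all genes), which takes the numbers as pairs. They also gave 2 with library totals (5.39%), DESeq2 (8.45%), no filter (5.81%) or one fit (9.74%). With limma-voom they gave 20 (28.1%). In REG compared to LFG, library totals gave 1 member at an unadjusted p under 0.05 (11.4% of all genes) and 1 without overlap. The 76 gave 37 with limma-voom (42.0%) and 13 in one fit (15.7%). The block moved no other of these counts by over 1.5 times. With it the 76 gave 8 in hADMSCs-Exo compared to REG (9.52%) and 7 in REG compared to LFG (8.61%). The cause was not tested.

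Leaving out 1 library gave 0 to 2 members at an unadjusted p under 0.05 in hADMSCs-Exo compared to REG (4.92% to 10.7% of all genes). In REG compared to LFG it gave 0 to 2 (4.51% to 37.3%). Non-overlapping members ran from 1 to 3 in hADMSCs-Exo compared to REG and from 2 to 3 in REG compared to LFG. In hADMSCs-Exo compared to LFG they ran from 0 to 3. Fewer libraries overlap less easily, and the share of all genes was not counted there, so no background stands beside these counts. For the 76 the ranges were 5 to 12 (lowest without REG replicate 2), 1 to 23 and 6 to 33 (both highest without LFG replicate 3), while all genes ran from 617 to 1348, 377 to 3688 and 584 to 4830.

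Signs turned where values lay near 0. Against LFG with library totals, hADMSCs-Exo gave -0.050 for Akt1, -0.093 for Rptor and -0.14 for Tsc2, and limma-voom gave -0.12 and -0.16 for the last 2. REG gave -0.21 (library totals) and -0.065 (limma-voom) for Akt1, and for Rptor 0.0051 (RLE), 0.0047 (DESeq2) and 0.039 (no filter). With 1 library left out, log2 fold changes ran from -0.29 to 0.31 (Mtor) and -0.062 to 0.22 (Rptor) in hADMSCs-Exo compared to REG. Compared to LFG, hADMSCs-Exo ran from -0.071 to 0.021 (Pik3cb), -0.42 to 0.14 (Mtor), -0.078 to 0.19 (Rptor) and -0.078 to 0.10 (Tsc2). REG ran from -0.34 to 0.14 (Pik3r1), -0.020 to 0.088 (Akt1), -0.30 to 0.053 (Mtor) and -0.11 to 0.16 (Rptor). The ratio differences that turned ran from -0.082 to 0.063 (Pik3ca to Pik3cb, REG compared to LFG), -0.17 to 0.19 (Pik3ca to Pik3r1, same) and, for Mtor to Tsc2, -0.36 to 0.036, -0.36 to 0.016 and -0.16 to 0.13 in the 3 comparisons. Akt2 and Rictor kept their signs throughout.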
